A study of Mus musculus with 8 samples.

Results

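The miRNAs mmu-miR-431, mmu-miR-433, mmu-miR-127, mmu-miR-434-3p and mmu-miR-370, from the proximal end of the imprinted Dlk1-Dio3 domain and named below without the species prefix, were examined in basal progenitors of the mouse embryonic cortex at embryonic day 16 (E16) and embryonic day 13 (E13). They are 5 of the 611 mouse miRNAs on the array and 5 of the 77 whose probes lie in the domain. They were chosen by their measured signals, as miRNAs of the Rtl1 and Rian loci that were detected at E13. Their levels at the stages and the differences between them are therefore given as a description with no test. Basal progenitors are precursors of cortical neurons that no longer touch the ventricle when they divide, and they were sorted by fluorescence. The E16 group and the E13 group held 4 replicates each, all from cortex labelled WT, with 1 one-colour Agilent miRNA array per replicate. No source used here gives the strain or the sorting gate. The design text speaks of 3 litters per stage, so unless litters were pooled some replicates of a stage share a litter, and the spread between replicates may be partly technical. The study's comparison addresses differences in miRNA level between a later and an earlier stage of cortical neurogenesis.

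A miRNA is cut from an RNA hairpin, and 1 arm or both arms of the hairpin can be loaded into the silencing complex, where the seed near the 5′ end of the miRNA pairs with target messages. The Dlk1-Dio3 domain is imprinted: the protein-coding genes Dlk1, Rtl1 and Dio3 are expressed from the paternal chromosome, and a run of noncoding RNAs that includes Meg3, the Rtl1 antisense transcript, Rian and Mirg is expressed from the maternal one. The domain's miRNAs are processed from these maternal transcripts and are known for their abundance in embryo, placenta and brain. Those at Rtl1 lie antisense to that gene, a coding gene derived from a retrotransposon that is needed in the placenta, and can direct the cleavage of its message because they pair with it along their whole length.

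All 5 names matched a mature sequence in RefSeq (GRCm38). The sequences are shown because the seeds decide which messages each miRNA can pair with, and the 5 have 5 different ones. Each is written 5′ to 3′ with the seed, bases 2 to 8, in capitals.
miR-431: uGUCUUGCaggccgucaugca
miR-433: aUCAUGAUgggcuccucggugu
miR-127: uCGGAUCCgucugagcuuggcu
miR-434-3p: uUUGAACCaucacucgacuccu
miR-370: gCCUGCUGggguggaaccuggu

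None of the 5 seeds occurred at the same place in any of the other mature mouse miRNAs of the table, which held 1679 entries and 1674 distinct sequences. The share of G and C ran from 45.5% in miR-434-3p to 68.2% in miR-370, with 57.1% in miR-431, 54.5% in miR-433 and 59.1% in miR-127. MiR-431 has 21 bases and each of the others has 22.

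In GRCm38 the hairpins lie on the plus strand of chromosome 12. Mir431, at chr12:109590447-109590537, and Mir434, at chr12:109594506-109594599, overlap Rtl1. Mir433, at chr12:109591715-109591838, and Mir127, at chr12:109592846-109592915, overlap Rtl1 and a second annotated gene, 6430411K18Rik. Mir370, at chr12:109618258-109618336, overlaps Rian, a long noncoding RNA that also hosts small nucleolar RNAs. The Mir434 and Mir127 hairpins are shown because arms of both were measured, with the 5′ arm and then the 3′ arm in capitals.
Mir434: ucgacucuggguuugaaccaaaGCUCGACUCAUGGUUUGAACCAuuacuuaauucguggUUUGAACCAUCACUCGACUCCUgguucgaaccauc
Mir127: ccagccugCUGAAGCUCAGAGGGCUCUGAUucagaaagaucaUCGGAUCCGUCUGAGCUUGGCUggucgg

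The array reads each miRNA through short probes that pair with its 3′ part. The brightest probe of each miRNA is shown 5′ to 3′, because the measurements below come from it. The capital is the base that the next shorter probe of the same miRNA lacks.
miR-431 probe: tgcatgacggcctgC
miR-433 probe: acaccgaggagccC
miR-127 probe: agccaagctcagacggaT
miR-434-3p probe: aggagtcgagtgatggtT
miR-370 probe: accaggttccacccC

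The files place these probes on mm9 chromosome 12, each 1 base shorter than the probe itself. The miR-431 probe lies at chr12:110828676-110828689, the miR-433 probe at chr12:110830000-110830012, the miR-127 probe at chr12:110831103-110831119 and the miR-434-3p probe at chr12:110832780-110832796. These 4 span 4121 bases, and the miR-370 probe, at chr12:110856523-110856536, follows after a gap of 23727 bases. The probes pair with bases 7 to 21 of miR-431, 9 to 22 of miR-433, 5 to 22 of miR-127 and of miR-434-3p, and 8 to 22 of miR-370. They leave out all of the seed in miR-433 and part of it in the others. The shorter probes were dimmer: those of miR-431, miR-433 and miR-370 passed the background on 0 arrays of either stage, and those of miR-127 and miR-434-3p on 0 E16 arrays and 2 E13 arrays.

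The arrays differed in brightness. The E16 arrays detected 76 to 168 miRNAs and the E13 arrays 117 to 205, a miRNA counting as detected where its probe was well above background. The 75th percentile of the processed signal, taken over the 126 mouse probes detected on each of the 8 arrays, was 109 to 748 at E16 and 162 to 490 at E13. E16 replicate 4 was the dimmest array. Levels are given below as a percentage of that percentile on the same array, or as log2 of the ratio to it with a floor at a log2 value of -5.96, which is 1.60% of the percentile. Every E16 array sat in the first row of its slide and every E13 array in the second, so row and stage cannot be told apart. As a check of the sorted cells, 7 of 8 neural miRNAs were detected on at least 1 E16 array and 8 of 8 on at least 1 E13 array, with a summed level of 3376% to 3674% at E16 and 2132% to 2650% at E13. Of 23 markers of blood, red cells, endothelium, smooth muscle and fibroblasts, skeletal muscle and epithelium, 0 were well above background on any array, and their summed levels reached at most 1.30% per list at E16 and 1.60% at E13. The part of the neural sum in the differences below was not tested. In these sorted populations fewer cells that hold a miRNA and less of it per cell cannot be told apart.

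MiR-127 and miR-434-3p were the members measured at both stages. MiR-127, whose human counterpart is known to act on the transcriptional repressor BCL6, stood at 4.68%, 3.56%, 3.90% and 0.963% in E16 replicates 1 to 4, against 12.7%, 15.0%, 12.0% and 12.2% in E13 replicates 1 to 4. The highest E16 array lay below the lowest E13 array, and E16 replicate 4 was not well above background. Its log2 level was -4.97 ± 0.68 at E16 and -2.95 ± 0.15 at E13 (SD, n = 4 each), a difference of -2.02 with a standard error of 0.31, or 4.04-fold lower at E16. MiR-434-3p stood at 5.32%, 3.68%, 3.99% and 0.0607% in E16 replicates 1 to 4, against 14.0%, 13.4%, 12.5% and 12.0% in E13 replicates 1 to 4. The pattern was the same, with no overlap between the stages and E16 replicate 4 not well above background. Its log2 level was -4.90 ± 0.74 at E16 and -2.95 ± 0.10 at E13 (SD, n = 4 each), a difference of -1.95 with a standard error of 0.33, or 3.88-fold lower at E16. Because E16 replicate 4 lies at the floor for both, the sizes are not exact. Without that array the log2 differences were -1.68 for miR-127 and -1.60 for miR-434-3p.

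MiR-431, miR-433 and miR-370 were detected on 0 of 4 E16 arrays and 4 of 4 E13 arrays. MiR-431, known in mouse sensory neurons for a role in the regrowth of axons, had processed signals of 5.88, 4.63, -0.553 and -1.26 scanner units in E16 replicates 1 to 4, against 12.1, 18.1, 30.6 and 18.2 in E13 replicates 1 to 4. MiR-433 had 5.76, 7.73, 1.64 and 0.315 units in E16 replicates 1 to 4, against 14.7, 42.9, 32.2 and 20.3 in E13 replicates 1 to 4. MiR-370, the member at Rian, had 7.95, 8.50, 0.569 and -0.273 units in E16 replicates 1 to 4, against 12.0, 15.4, 26.1 and 14.2 in E13 replicates 1 to 4. All 3 were lower on every E16 array than on any E13 array before scaling. How many of all tested miRNAs separate in this way before scaling was not computed. A value below 0 is a spot dimmer than its background estimate.

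For these 3 only a bound on the fold can be given. It sets the E13 mean against the mean over E16 arrays of the lowest signal that was well above background there, or of the probe's own signal or the floor where that was higher. By that bound the E16 level was at least 2.20-fold lower for miR-431, at least 2.98-fold lower for miR-433 and at least 1.91-fold lower for miR-370. These bounds hold only for the scaling used here. Without scaling between arrays the fitted log2 differences were -0.99 for miR-431, -1.43 for miR-433 and -0.78 for miR-370. On the E13 arrays their log2 levels were -3.97 ± 0.16 for miR-431, -3.54 ± 0.48 for miR-433 and -4.18 ± 0.29 for miR-370 (SD, n = 4 each). MiR-433 varied most among the 5 at E13, with 9.04%, 13.5%, 6.57% and 6.89% in replicates 1 to 4.

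**Figure D1:**
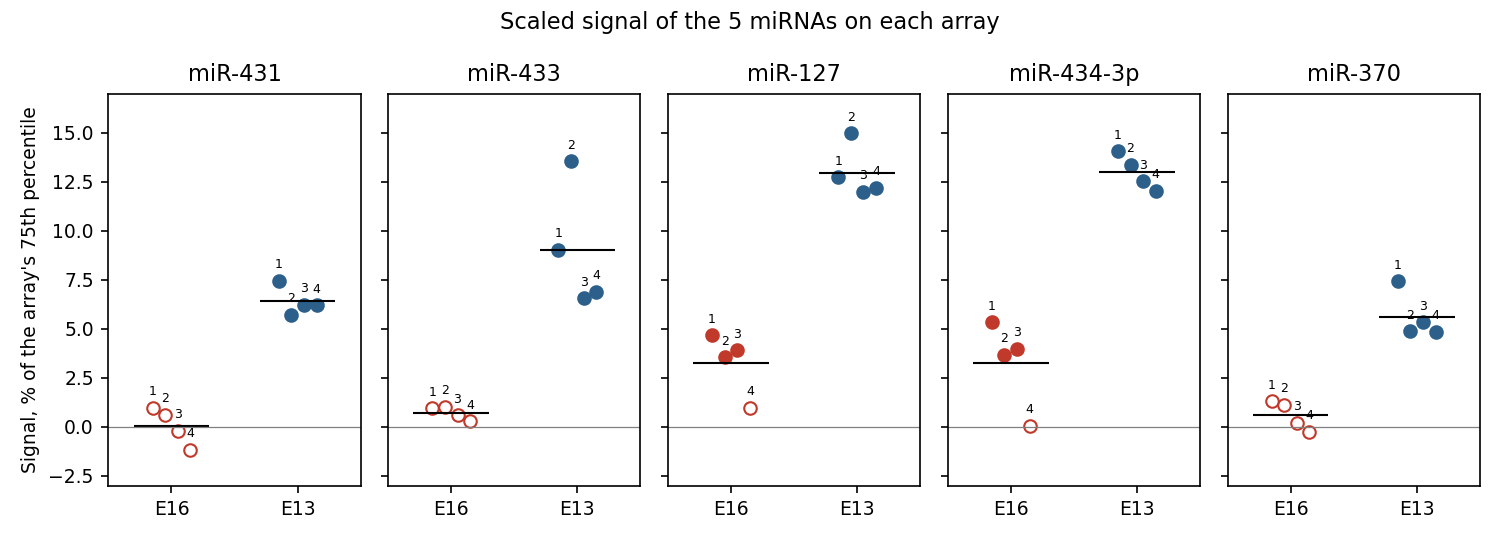
Scaled signal of each of the 5 miRNAs on each array, as a percentage of the array's 75th percentile (vertical axis), with the E16 arrays left of the E13 arrays. Filled points were well above background, open points were not, bars are means of the 4 arrays, and small numbers give the replicate; all E16 points lie below all E13 points in each panel, and for miR-431, miR-433 and miR-370 all 4 E16 points are open.

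Each probe was printed on 10 spots, and those well above background were counted one array at a time after outliers were left out. MiR-127 had 10, 10, 7 and 0 such spots of 10 in E16 replicates 1 to 4. MiR-434-3p had 10, 10 and 9 of 10 in E16 replicates 1 to 3 and 0 of 8 in E16 replicate 4. The miRNAs without an E16 detection still had single spots above background, with 2 of 10 for miR-370 in E16 replicate 1 and 1 of 10 for miR-433 in E16 replicate 2. MiR-431 had 8 of 10, 9 of 9, 9 of 9 and 10 of 10 such spots in E13 replicates 1 to 4.

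Whether the stages overlapped before scaling differed among the 5. Unscaled, miR-127 had signals of 28.5, 26.6, 11.0 and 1.05 units in E16 replicates 1 to 4, against 20.7, 47.4, 58.7 and 35.8 in E13 replicates 1 to 4. MiR-434-3p had 32.4, 27.5, 11.3 and 0.0660 units in E16 replicates 1 to 4, against 22.8, 42.3, 61.5 and 35.4 in E13 replicates 1 to 4. In both, the brightest E16 array lay above the dimmest E13 array, so the unscaled stages overlapped, while for miR-431, miR-433 and miR-370 they did not. The fitted log2 differences of all 5 were smaller without scaling, from -0.78 for miR-370 to -1.43 for miR-433. Over all 153 tested miRNAs, 30.7% had every scaled E16 value below every E13 value, as the 5 had. That share was not computed for unscaled signals, so nothing is read from the unscaled separation.

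Whether an E16 array could have shown a miRNA at its mean E13 level was computed from that level and the array's own percentile. For miR-431 the E13 level would have given 38.7, 47.6, 17.9 and 6.92 units in E16 replicates 1 to 4, where the lowest signal well above background was 9.17, 10.3, 8.90 and 9.44. For miR-433 it would have given 52.5, 64.5, 24.3 and 9.38 units, and for miR-370 33.6, 41.3, 15.6 and 6.01. These 3 would therefore have stood above that limit on E16 replicates 1, 2 and 3 and below it on E16 replicate 4. For miR-433 the values there, 9.38 and 9.44 units, lie within the spread of its spots (SD 0.98 units). The limit is only the dimmest signal that passed on an array, so E16 replicate 4 might have missed these 3 at their E13 level. For miR-127 the E13 level would have given 78.6, 96.6, 36.4 and 14.0 units, and for miR-434-3p 79.0, 97.0, 36.6 and 14.1, above the limit on all 4 E16 arrays.

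Set against that expectation, miR-127 was measured at 36.3%, 27.6%, 30.2% and 7.45% of its mean E13 level in E16 replicates 1 to 4. MiR-434-3p was measured at 41.0%, 28.4%, 30.8% and 0.468%. The first 3 E16 arrays lay close together for both miRNAs and the fourth stood below them. The dim members gave 15.2%, 9.72%, -3.08% and -18.2% for miR-431, 11.0%, 12.0%, 6.73% and 3.35% for miR-433, and 23.6%, 20.6%, 3.66% and -4.54% for miR-370, all from signals not well above background.

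**Figure D2:**
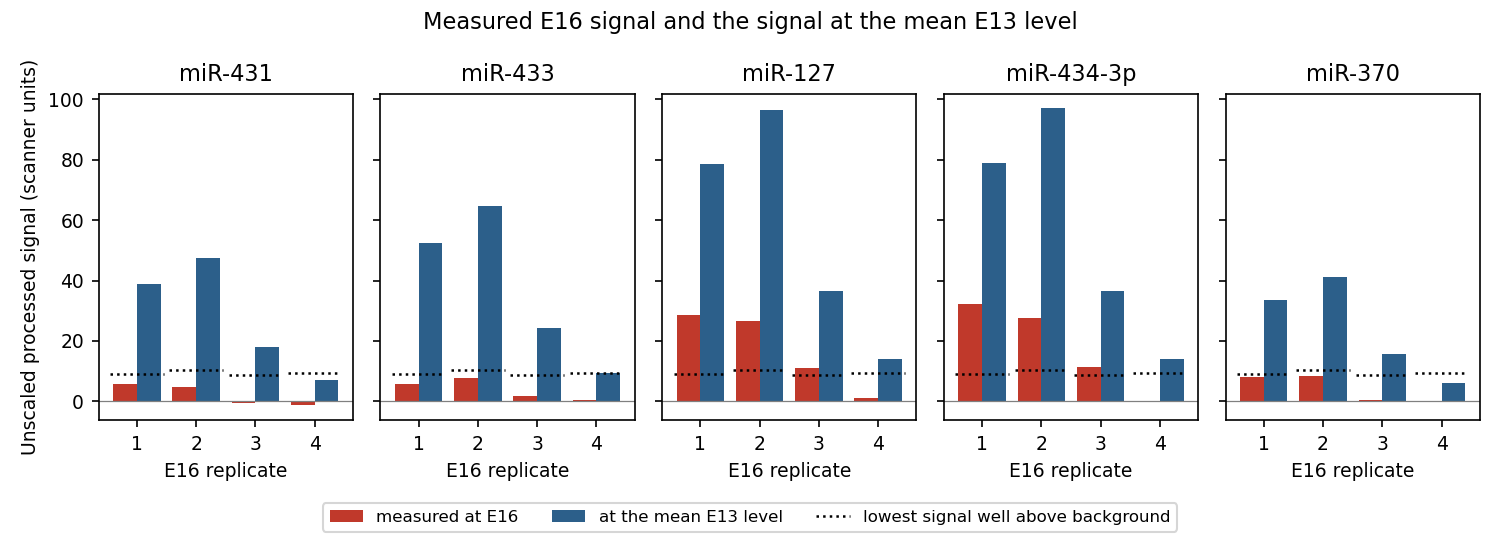
Measured processed signal on each E16 array (red, scanner units) beside the signal that the mean E13 level would give on that array (blue), with a dotted line at the array's lowest signal well above background. On E16 replicate 4 the blue bars of miR-431, miR-433 and miR-370 (6.92, 9.38 and 6.01 units) end below the line at 9.44, and those of miR-127 and miR-434-3p (14.0 and 14.1 units) end above it.

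In the fit over all 153 tested miRNAs (limma, Benjamini-Hochberg adjusted), 40 were lower at E16, or 26.1%, and 11 were higher, or 7.19%. All 5 members were among the lower ones, against 2 of 5 without the common floor, 4 of 5 with the total signal per miRNA and 0 of 5 without scaling between arrays (1 at an unadjusted p under 0.05 in limma). Since the stages chose them, nothing is read from these counts. The median log2 difference of the 5 was -1.99, or -1.57 with the 3 undetected at E16 set at their bound, beside -0.40 for all tested miRNAs. The split of all calls depends on the scaling: with the percentile taken over all mouse probes, 16 were lower and 47 higher, and the median of all tested miRNAs was 0.42 in place of -0.40, while the median of the 5 was -1.45.

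The 5 profiles were compared over the 8 arrays, after each was centred on its own mean, as the root mean square of their log2 differences. MiR-127 and miR-434-3p were the most alike pair, at 0.0994, followed by miR-431 and miR-370 at 0.135, and miR-433 and miR-434-3p were the least alike at 0.575. All points share arrays and scaling, and miR-431, miR-433 and miR-370 share the floor on every E16 array. On the 4 E13 arrays alone, where all 5 were measured, miR-127 and miR-434-3p differed by 0.114 and miR-433 and miR-370 by 0.489. There miR-431 was nearly as close to miR-434-3p, at 0.120, and to miR-370, at 0.125.

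The other arms of these hairpins were mostly undetected. MiR-431*, miR-433* and miR-127*, the arms opposite the listed ones, were well above background on 0 of 8 arrays, and the array has no probe named miR-370*. MiR-434-5p had 8.31, 5.94, 2.91 and -1.17 units in E16 replicates 1 to 4, against 4.72, 5.50, 13.7 and 8.13 in E13 replicates 1 to 4. It was well above background on E13 replicate 3 alone, and none of the arms reached the 4 arrays needed for a test.

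Besides the 5, the array held 19 miRNAs of the proximal stretch, the other arms included. On no array were 15 of these 19 detected, beside 400 of all 611 mouse miRNAs. Just outside the choice stood miR-337-5p, detected on 0 E16 arrays and 3 E13 arrays. It had 5.05, 5.19, 1.29 and -1.28 units in E16 replicates 1 to 4, against 7.29, 16.7, 19.9 and 11.7 in E13 replicates 1 to 4, and by the same bound its E16 level was at least 1.53-fold lower. Just inside was miR-370, whose lowest E13 array gave 12.0 units. MiR-136, another miRNA antisense to Rtl1, was detected on 1 array of each stage, with 11.2 units in E16 replicate 1 and 15.4 in E13 replicate 3, and miR-341 on E13 replicate 3 alone, with 13.1 units. The undetected ones included miR-770-5p and miR-770-3p, miR-673-5p and miR-673-3p, miR-493, miR-337-3p, miR-540-5p and miR-540-3p, miR-665, miR-1188, miR-1906 and miR-136*.

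The distal stretch of the domain, where the miRNAs of Mirg and its neighbours lie, held 53 miRNAs on the array. Of these, 7 were well above background on at least 1 E16 array and 22 on at least 1 E13 array, and 31 on none. Among all 611 mouse miRNAs, 178 were detected on at least 1 E16 array and 205 on at least 1 E13 array, and 400 on none. All 22 distal ones were detected on E13 replicate 3, the array with the most detections. So were all 205 mouse miRNAs detected on any E13 array. Replicates 1, 2 and 4 of E13 detected 5, 14 and 9 of the distal ones. Together with the 19 proximal ones, the other miRNAs of the domain numbered 8, 5, 0 and 0 detected in E16 replicates 1 to 4, against 5, 15, 26 and 10 in E13 replicates 1 to 4. Over all mouse miRNAs the counts were 161, 168, 125 and 76 in E16 replicates 1 to 4, against 117, 146, 205 and 142 in E13 replicates 1 to 4. The 75th percentiles of those arrays were 609, 748, 282 and 109 units in E16 replicates 1 to 4, against 162, 317, 490 and 294 in E13 replicates 1 to 4. The part of array brightness in these counts was not tested.

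**Figure D3:**
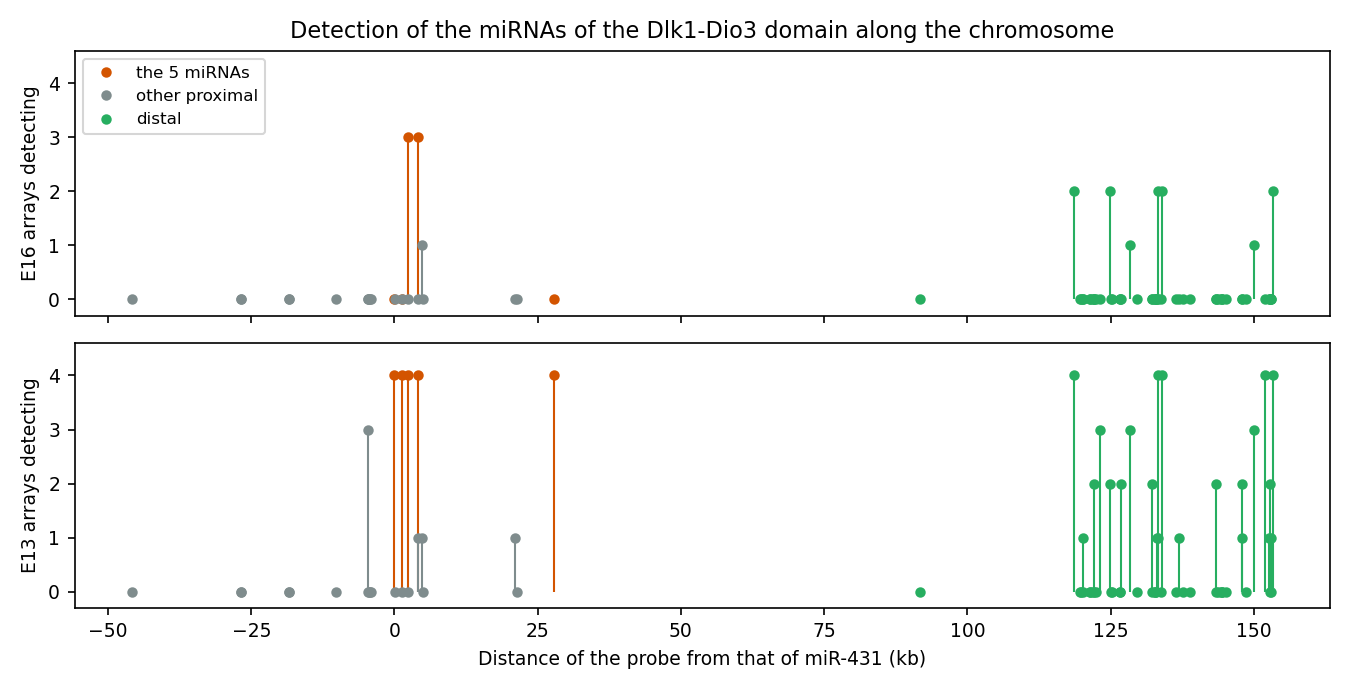
Number of arrays, of 4 per stage, on which each of the 77 miRNAs of the domain was well above background (vertical axis), against the distance of its probe from that of miR-431 in kilobases, with E16 above E13. Of the 5 miRNAs, miR-127 and miR-434-3p reach 3 E16 arrays and all 5 reach 4 E13 arrays. The other proximal miRNAs reach at most 3 E13 arrays. In the distal stretch 22 miRNAs are detected on at least 1 E13 array, against 7 on at least 1 E16 array. All 22 are detected on E13 replicate 3, as are all 205 mouse miRNAs detected on any E13 array.

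Of those 72 other miRNAs, 8 passed the filter of 4 arrays, all of them distal, and 7 fell at E16, 0 rose and miR-494 did not pass the threshold. Over all 153 tested miRNAs, 26.1% were lower and 7.19% higher. A miRNA that passed through the E13 arrays alone, as miR-541 did, had to differ. MiR-410, miR-379, miR-300 and miR-376a also had all 4 E13 arrays, with 2 E16 arrays each. The 7 therefore do not stand for the 72. All 7 had at least 1 E16 array at the floor, so their sizes are not exact. Without the common floor only miR-410 kept its call (limma adjusted p = 0.0039). Each of the other 6 had a signal below 0 on E16 replicate 4, which was then set at the array's smallest positive value. Their differences came out larger, but these are not measured sizes. The limma adjusted p was then from 0.12 to 0.17 for miR-379, miR-376a and miR-300. The median log2 difference of the 8 was -2.02, or -1.87 with miR-541 at its bound, beside -0.40 for all tested miRNAs. MiR-410, at the far end of the domain, had 16.8, 16.5, 7.03 and 0.677 units in E16 replicates 1 to 4, against 19.9, 30.3, 60.3 and 38.8 in E13 replicates 1 to 4. Only E16 replicates 1 and 2 were well above background, and its log2 difference was -2.40 with a standard error of 0.20 (limma adjusted p = 3.2e-05).

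MiR-300 had 27.7, 21.8, 8.14 and -0.0849 units in E16 replicates 1 to 4, against 23.3, 32.5, 63.9 and 37.1 in E13 replicates 1 to 4, and a log2 difference of -2.16 (SE 0.29, limma adjusted p = 0.00041). MiR-379, near the start of the distal run, had 18.7, 11.7, 4.89 and -0.956 units in E16 replicates 1 to 4, against 16.1, 24.8, 46.5 and 29.2 in E13 replicates 1 to 4, and a log2 difference of -2.26 (SE 0.23, limma adjusted p = 7.2e-05). Both were detected on 2 E16 arrays and 4 E13 arrays, so the E13 arrays alone met the filter. Neither kept its call without the common floor. MiR-541 had 5.63, 8.21, 1.89 and -0.134 units in E16 replicates 1 to 4, against 13.8, 25.5, 28.7 and 17.2 in E13 replicates 1 to 4. It was detected on 0 E16 arrays and 4 E13 arrays, as miR-431, miR-433 and miR-370 were. By the same bound, on the same scaling, its E16 level was at least 2.40-fold lower. MiR-541 is given without a p because its choice through the E13 arrays and the floor on all 4 E16 arrays fixed the outcome of the test.

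MiR-495 and miR-377 were each detected on 1 E16 array and 3 E13 arrays and lay at the floor on 3 of 4 E16 arrays. MiR-495 stood at no more than 1.71% at E16, against 5.60% to 6.98% at E13. MiR-377 stood at no more than 1.68% at E16, against 3.97% to 6.23% at E13. The stages did not overlap for either, and no size or p is given because the floor sets most of their E16 values. MiR-376a had 25.9, 11.7, 5.58 and -1.60 units in E16 replicates 1 to 4, against 14.4, 14.2, 45.7 and 26.6 in E13 replicates 1 to 4, with a log2 difference of -1.82 (SE 0.37, limma adjusted p = 0.0042). The E13 arrays alone met the filter for miR-376a, and its call was lost without the common floor. MiR-494 had 11.2, 31.4, 8.08 and 1.91 units in E16 replicates 1 to 4, against 8.90, 7.26, 16.8 and 25.4 in E13 replicates 1 to 4, and its stages overlapped. Its log2 difference was -0.81 with a standard error of 0.44 (limma adjusted p = 0.17).

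Among the tested miRNAs outside the 5, the profile nearest to their mean over the 8 arrays was that of miR-7a, a neural miRNA from outside the domain, with a root mean square difference of 0.174. The next were miR-541 at 0.196, miR-495 at 0.221, miR-410 at 0.274 and miR-300 at 0.278, so 4 of the 5 nearest lie in the domain, beside 8 of the 148 tested miRNAs outside the 5. MiR-541 lay at the floor on 4 E16 arrays and miR-495 on 3, the floor on which miR-431, miR-433 and miR-370 also lie, and such shared floor values make profiles alike. MiR-7a had 43.3, 40.8, 18.9 and 5.08 units in E16 replicates 1 to 4, against 34.0, 71.4, 91.9 and 70.3 in E13 replicates 1 to 4. Its log2 difference was -1.86 with a standard error of 0.18, and it was detected on 3 E16 arrays and 4 E13 arrays, as miR-127 and miR-434-3p were. These miRNAs were picked for their likeness over all 8 arrays, which includes the stage difference, so miR-7a is given without a p.

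Slide 2 held 2 arrays of each stage. Within it the log2 difference was -1.89 for miR-127 and -1.84 for miR-434-3p, both detected on all its arrays, and miR-431, miR-433 and miR-370 were detected on 0 of its 2 E16 arrays and 2 of its 2 E13 arrays. Slide 3 held 2 E13 arrays and a single E16 array, replicate 4, on which all 5 lay at the floor, so it gives no independent size or direction. With the slide as a block the log2 difference was -2.30 for miR-127 and -2.28 for miR-434-3p. The differences of the 5 stayed below 0 under each alternative that gave a value. For miR-431, miR-433 and miR-370, at the floor on all 4 E16 arrays, fits with the common floor could give no other sign. The filter on all 8 arrays gave no value for the 5, and the authors' deposited table gave one for miR-434-3p alone. The sizes of the 5 differences ranged widely where the dim E16 signals were treated differently, as the plot of the processing alternatives shows.

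**Figure D4:**
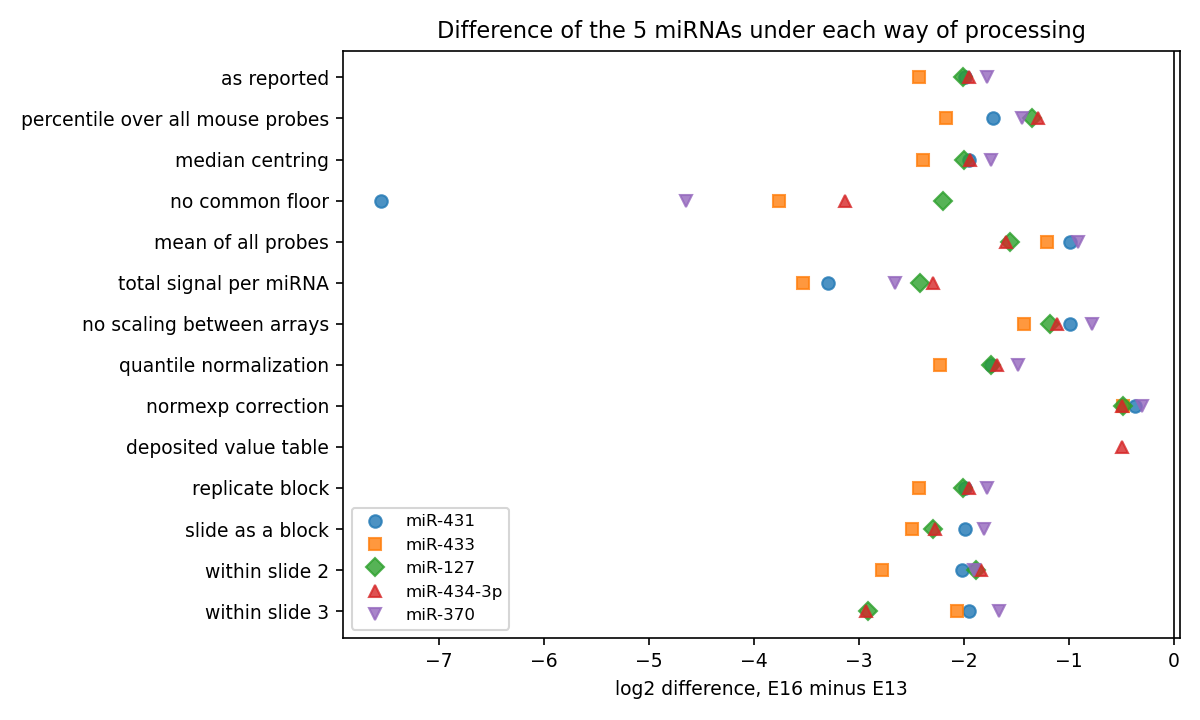
Log2 difference, E16 minus E13, of each of the 5 miRNAs (symbols, horizontal axis) under each processing alternative (rows); values that involve the floor, all those of slide 3 included, are inexact in size. All points lie left of 0, as those of miR-431, miR-433 and miR-370 must where the common floor sets all their E16 values. The median of the 5 is -1.99 as reported, -3.76 without the common floor and -0.49 after the normexp background correction. The authors' deposited table gives a value for miR-434-3p alone.

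The authors' deposited table holds only spots well above background on all 8 arrays, 1187 spots of 86 miRNAs, and of the 5 it holds miR-434-3p alone, on 1 of its 10 spots. On that spot the authors' deposited table gives log2 values of 5.07, 3.79, 4.06 and 6.06 for E16 replicates 1 to 4, against 5.39, 5.42, 4.94 and 5.22 for E13 replicates 1 to 4. E16 replicate 4 has the highest value of that row in the authors' deposited table, while it was the lowest of the 8 arrays when the spots were averaged. In the scanner data the spot read 23.0 units on that array and carried an outlier flag, and the other 9 spots of the probe read -1.16 to 5.42 units with a median of 0.393. The mean difference on the spot in the authors' deposited table was -0.50 on the log2 scale. Of the 86 miRNAs in the authors' deposited table, 4 rest on 1 spot, and for 2 of those the spot was flagged on at least 1 array.

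**Figure D5:**
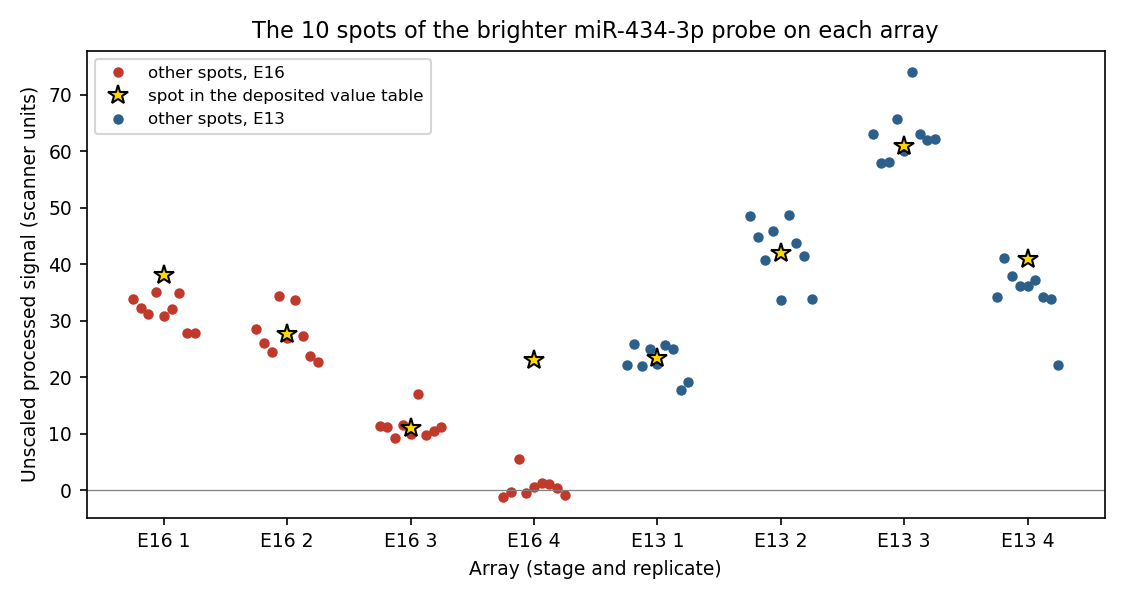
Processed signal (scanner units) of the 10 spots of the brighter miR-434-3p probe on each array, with E16 arrays left of E13 arrays; the star is the spot that the authors' deposited table holds. On E16 replicate 4 the star stands at 23.0 units and the other 9 spots lie between -1.16 and 5.42, while on the other arrays the star lies near the other spots.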

How the data were processed

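Cyanine-3-labelled total RNA of sorted basal progenitors was measured on Agilent miRNA arrays, per the labels' protocols. Arrays were read with Agilent Feature Extraction 10.7.3.1, per the submitters' processing notes. The deposited scanner files give background-subtracted processed intensities per spot, unscaled between arrays, with flags for spots well above background and outliers, per the file headers. The authors also deposited a table of log2 values whose columns have equal medians (6.90) and rank the spots as the processed signal does (Spearman correlation 1); it was read as quantile-normalized, its method being stated in no source used here.

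Flagged outlier spots (2.01% to 3.86% per array) were left out and the rest averaged per probe; the brightest probe stood for its miRNA. A probe was well above background when a share of 0.5 of its spots was. Signals were divided by the array's 75th percentile over 126 probes, floored and put on the log2 scale. Differences that involve the floor are inexact in size. The 153 miRNAs well above background on at least 4 arrays were fitted with limma 3.58.1 in R 4.3.3 (two-sided, Benjamini-Hochberg, threshold 0.05). The fit was run on simulated data drawn without a floor, so that check does not cover miRNAs with arrays at the floor. The number of arrays limits precision. The domain list was taken by probe position, the named miRNAs are its members, the other arms, up to 8 tested domain miRNAs by p and the 5 nearest profiles, and all members and lists were chosen with earlier results of these data known. Alternatives changed the scaling, background correction, floor, filter, probe summary, blocks and samples.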

Additional observations from a re-analysis of the deposited data

Results flagged for a closer look

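In 24 groups of 4 arrays examined for 1 array far from the rest (gap to the nearest array as a share of the group's range), 4 stood out, and about 5% do so by chance. At E13, miR-376a had a share of 0.934, replicate 2 lying at 4.47% of its array's 75th percentile, against 8.87% to 9.31% on the other 3 arrays. The other 3 groups hold values at the floor: miR-495 at E16 had a share of 1 and miR-377 at E16 a share of 1, each with 3 arrays at the floor, and miR-379 at E16 had 0.879 with 2 arrays at the floor. None of the 5 proximal miRNAs stood out, but miR-431, miR-433 and miR-370 could not at E16, where all 4 arrays lay at the floor. The causes of the 4 that stood out were not tested.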

How the results depend on the processing

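None of the 5 miRNAs changed sign under an alternative that gave a value. For miR-431, miR-433 and miR-370, at the floor on all 4 E16 arrays, fits with the common floor could give no other sign. The filter on all 8 arrays gave no value for the 5, and the authors' deposited table gave one for miR-434-3p alone. The median log2 difference of the 5 (-1.99) ranged from -2.18 to -1.78 when 1 array was left out. It came to -1.45 with the percentile taken over all mouse probes, -1.21 with the mean of all probes of a miRNA, -2.66 with the total signal per miRNA, -3.76 without the common floor, -0.49 with normexp, and -1.12 without scaling between arrays, an alternative chosen after seeing the data. Of all tested miRNAs, 40 were lower and 11 higher. Leaving out 1 array gave 29 to 54 lower and 9 to 17 higher, 17 being without E16 replicate 4. The percentile over all mouse probes gave 16 lower and 47 higher, total signal 19 lower, the log2 values of the authors' deposited table gave 11 lower and 13 higher of 86, the filter on all 8 arrays 10 lower of 75, and slide 2 alone 25 lower. Slide 3 alone gave 88 lower, from a fit whose E16 side is the dimmest array alone, assumed to vary like the E13 arrays. Quantile normalization gave 21 higher and normexp 18. Without scaling limma called 0 lower, with 5 at an unadjusted p under 0.05, and 1 higher. Of the other domain miRNAs, 7 of 8 were lower, and 7 in each fit that left out 1 array. Without the common floor 1 was lower (6 lost the call with larger differences), without scaling 0 (1 at an unadjusted p under 0.05 in limma), and without the filter 17 of 72, where most miRNAs had no spread and limma's error is unreliable. The authors' deposited table and the filter on all 8 arrays gave no value for them. MiR-494 reversed, to 0.0061, on that percentile over all mouse probes. The causes were not tested. Replicate numbers did not pair the samples, the same-number correlations being -0.10, 0.07, 0.27 and -0.15, and several arrays were nearer to another number. With the replicate block 35 were lower and 10 higher, and the differences of the 5 were as reported. Signal over background on E16 replicate 4 limits what can be said of miR-431, miR-433 and miR-370 there.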
